A study of Mus musculus with 24 samples.

Results

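DNA methylation was compared between brain and heart of C57BL/6J mice, an inbred strain, in every 100 bp tile of the genome that had a methylation level in both tissues. Such tiles numbered 896477, which was 95.1% of the 942643 tiles measured in brain and 96.4% of the 930358 measured in heart, out of 1005908 tiles measured in at least 1 tissue of the series. Methylation came from reduced representation bisulphite sequencing (RRBS), in which DNA is cut at CCGG sites, short fragments are kept and unmethylated cytosines are converted before sequencing. The level of a tile is the percentage of its CpG cytosines read as methylated. Bisulphite treatment does not separate methylcytosine from hydroxymethylcytosine, so a level covers both.

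The 6 brain libraries came from a 5 mm section of the front of the brain and the 6 heart libraries from a 5 mm section of the apex of the heart. The mice were littermates kept on chow to 24 weeks of age, 3 males and 3 females by the labels, and the same mice gave both tissues. The columns of levels could be tied to a tissue but not to a mouse or a sex, so each tissue was treated as 1 group of 6 libraries, numbered 1 to 6 within a tissue as the deposited columns are. The 12 liver libraries of the series were used only to show a tissue that took no part in the comparison. A section holds many cell types, and a different mix of cells cannot be told apart from a different level within a cell. Depth per tile is unknown apart from the authors' minimum of more than 10 reads, so no counting error is given, and the errors below are SDs between libraries.

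In mammals most CpGs outside CpG islands are methylated by the DNA methyltransferases, and methylation is lost locally at enhancers and promoters that a cell type uses, often where its transcription factors bind. CpG islands, the CpG-dense stretches at the start of most housekeeping and developmental genes, are kept free of methylation in nearly all tissues whether the gene is on or off. Heart muscle is known for low methylation across the genes of the contractile machinery. Neurons and glia are known for low methylation at enhancers and some promoters of neural genes.

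The tiles furthest apart, and a tile of several genes described below, are shown so that the CpGs behind the values can be seen. Sequences are from the RefSeq GRCm38 (mm10) assembly, plus strand, with the bases of each CpG in capitals (a lone capital at an end belongs to a CpG that crosses the edge of the tile).
Intergenic tile, chr8:125286601-125286700: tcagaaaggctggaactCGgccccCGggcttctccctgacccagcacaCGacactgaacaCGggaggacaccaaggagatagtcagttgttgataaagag
Lrrc8c intron 1, chr5:105527901-105528000: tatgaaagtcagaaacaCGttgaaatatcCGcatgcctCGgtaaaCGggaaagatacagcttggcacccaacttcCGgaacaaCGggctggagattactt
Lrrc8c intron 1, chr5:105528201-105528300: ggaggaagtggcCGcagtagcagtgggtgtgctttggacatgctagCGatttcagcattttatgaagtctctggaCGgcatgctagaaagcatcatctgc
Popdc2 coding exon 1, chr16:38362901-38363000: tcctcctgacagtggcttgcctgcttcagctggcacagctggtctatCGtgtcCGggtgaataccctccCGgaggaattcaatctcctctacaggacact
Myh7 coding exon 28, chr14:54979401-54979500: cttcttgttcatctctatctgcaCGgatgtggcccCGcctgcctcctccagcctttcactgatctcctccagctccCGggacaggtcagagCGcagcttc
Tek intron 1, chr4:94739701-94739800: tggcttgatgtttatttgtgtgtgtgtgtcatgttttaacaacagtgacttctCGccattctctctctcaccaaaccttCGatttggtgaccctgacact
Tubb2b coding exon 4, chr13:34127901-34128000: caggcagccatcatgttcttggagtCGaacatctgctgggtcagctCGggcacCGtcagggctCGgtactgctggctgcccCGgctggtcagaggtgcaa
Akap6 intron 1, chr12:52700301-52700400: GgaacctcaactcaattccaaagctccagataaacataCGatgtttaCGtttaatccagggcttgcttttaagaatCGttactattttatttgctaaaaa
Mir99ahg intron 4, chr16:77537001-77537100: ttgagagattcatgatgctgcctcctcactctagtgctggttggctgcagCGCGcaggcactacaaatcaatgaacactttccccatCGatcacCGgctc
Lrrc4 coding exon 1, chr6:28831401-28831500: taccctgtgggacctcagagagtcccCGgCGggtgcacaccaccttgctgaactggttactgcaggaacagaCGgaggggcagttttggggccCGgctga
Igf2r promoter, chr17:12769801-12769900: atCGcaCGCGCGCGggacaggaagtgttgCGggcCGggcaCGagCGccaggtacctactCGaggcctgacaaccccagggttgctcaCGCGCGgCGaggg

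Brain DNA was more methylated than heart DNA over the tiles as a whole, and the difference lay outside CpG islands. The mean level over all tiles was 66.5% ± 0.949 in brain and 61.0% ± 0.261 in heart (SD, 6 libraries a tissue). Brain libraries ranged from 64.9% to 67.7% and heart libraries from 60.8% to 61.5%, so the tissues did not overlap. The difference of 5.54 percentage points had p = 0.00216 in an exact two-sided permutation test, the smallest p that 6 against 6 libraries can give (adjusted p = 0.00239 over all classes of tiles tested in this way). The median difference over tiles was 3.20 points, and the SD between libraries in a tile had a median of 4.84 points in brain and 4.62 points in heart.

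Brain library 1 stood apart from the other brain libraries. Its correlation with the heart libraries across tiles was 0.908 to 0.918, against 0.871 to 0.892 for the other 5 brain libraries, while its correlation with those brain libraries was 0.936 to 0.956. At 21519 tiles where heart differed by at least 25 points from the other brain libraries and from liver, which lay within 10 points of each other, its median position was 0.718 on a scale from 0 at the heart mean to 1 at the mean of the other brain libraries. The other brain libraries, placed in the same way, lay at 1.01 to 1.09. At 20829 tiles where liver stood apart from brain and heart instead, brain library 1 lay at 1.002 on the like scale from liver to the other brain libraries. Its levels thus lay toward those of heart and not toward those of liver. The cause was not tested. Without it the mean difference over all tiles was 5.86 points, and the counts of called tiles and promoters without it are given below.

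Each tile was tested with limma, a linear model with a moderated variance, and called at a Benjamini-Hochberg adjusted p of 0.01 or less with a difference of tissue means of at least 25 points. Of all tiles, 65744 (7.33%) were called higher in brain and 14505 (1.62%) lower in brain. The adjusted p alone was passed by 228196 tiles (25.5%). Among called tiles, the 6 brain and the 6 heart libraries did not overlap in 88.3% of those higher and 90.3% of those lower in brain. Over all tiles, with no limit on the difference, the libraries did not overlap in 143184 tiles with brain above heart (16%) and in 30576 with brain below heart (3.41%), and in 179087 and 35704 tiles without brain library 1. Without that library the calls were 73602 higher and 15565 lower in brain.

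Of all calls, 81.9% were higher in brain. That share depends on the mean level of the libraries. After each library was centred on the mean of all libraries, the calls were 38905 higher and 24564 lower in brain, and the share higher in brain was 61.3%. The mean difference of 5.54 points was not shared by all tiles. It ran from 0.118 points in tiles with 10 or more CpGs to 8.87 points in tiles with 1 CpG. Centring moves all tiles of a library by the same amount, so the centred share is no neutral correction. The counts below are without centring unless stated.

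Called tiles differed in their levels as well as in direction. Tiles higher in brain had a median level of 73.2% in brain and 37.5% in heart, whereas tiles lower in brain had a median of 44.8% in brain and 80.4% in heart. A switch from an unmethylated to a methylated state was rare. Only 163 tiles lay above 80% in brain and below 20% in heart, and 19 lay the other way round. By contrast 127129 tiles (14.2%) were above 80% in brain and between 20% and 80% in heart, and 34471 (3.85%) were between these limits in brain and above 80% in heart. Tiles above 80% in both tissues made up 35.8% and tiles below 20% in both 14.99%.

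**Figure D1:**
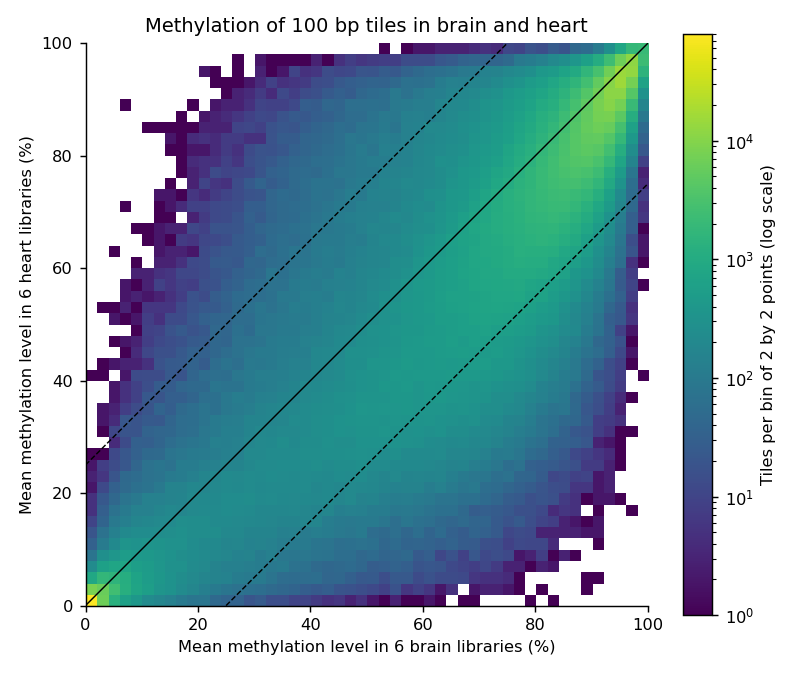
Mean level of each tile in the 6 brain libraries (horizontal axis, %) against the 6 heart libraries (vertical axis, %), with colour giving the number of tiles per bin on a log scale. The solid line marks equal levels and the dashed lines a difference of 25 points. More tiles lie to the right of the diagonal (higher in brain) than above it, and the corners at low level in 1 tissue and high level in the other are nearly empty.

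Liver, which took no part in the calls, was mostly nearer to brain at tiles higher in brain and nearer to heart at tiles lower in brain. At the 57543 tiles higher in brain that were also measured in liver, the median liver level was 64.5%, and the liver mean was nearer to the brain mean than to the heart mean in 66.8% of them. At the 12987 tiles lower in brain the median liver level was 85.5%, and liver was nearer to heart in 87.6%. In most called tiles of either kind liver was thus nearer to the tissue with the higher level.

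The share of tiles called higher in brain fell as CpGs became denser, and few tiles of CpG islands were called. Among tiles with 1 CpG, 11.5% were called higher and 1.40% lower in brain. Tiles with 3 or 4 CpGs gave 6.30% and 2.03%, tiles with 7 to 9 CpGs 1.13% and 0.777%, and tiles with 10 or more CpGs 0.267% and 0.253%. The share called lower in brain was largest at 3 or 4 CpGs, and in the densest tiles both shares were nearly equal. Calls higher in brain held a mean of 2.12 CpGs and calls lower in brain a mean of 2.81.

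Tiles in CpG islands had a mean level of 5.59% ± 0.141 in brain and 5.42% ± 0.157 in heart. Their difference of 0.172 points did not pass the exact permutation test (p = 0.0801, adjusted p = 0.0841), nor did that of 0.118 points for tiles with 10 or more CpGs (p = 0.126, adjusted p = 0.126). Of island tiles 0.388% were called higher and 0.303% lower in brain. Within 2000 bp of an island, the shores, the difference was 2.48 points and the shares 4.17% and 1.63%. Outside islands and shores the difference was 6.44 points and the shares 8.44% and 1.77%. In every class other than islands and the densest tiles the libraries of the tissues were fully separated, and the exact p was 0.00216.

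By RefSeq annotation the tissues differed most between genes and least at promoters. Intergenic tiles averaged 74.99% ± 1.22 in brain and 67.3% ± 0.293 in heart, a difference of 7.69 points. Introns differed by 4.85 points, coding exons by 2.74 points and promoters, here the 1000 bp upstream of a start, by 1.17 points. The directions were distributed differently. Intergenic tiles made up 43.4% of all tiles, 50.2% of those higher in brain and 33.1% of those lower in brain. Intron tiles made up 36.5% of all tiles, 40.1% of those higher and 51.2% of those lower in brain, and coding exons 9.96%, 5.78% and 10.1%. Repeats were scarcer among calls of either direction than among all tiles, and most of all among those lower in brain. Tiles with at least 50 repeat-masked bases were 24.5% of all tiles, 16.1% of those higher and 3.98% of those lower in brain. Their mean difference was 6.99 points, against 5.06 points in the other tiles. Across the 19 autosomes the share called ranged from 6.54% (chromosome 7) to 7.98% (chromosome 6) for tiles higher in brain and from 1.41% (chromosome 6) to 1.85% (chromosome 8) for tiles lower in brain.

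**Figure D2:**
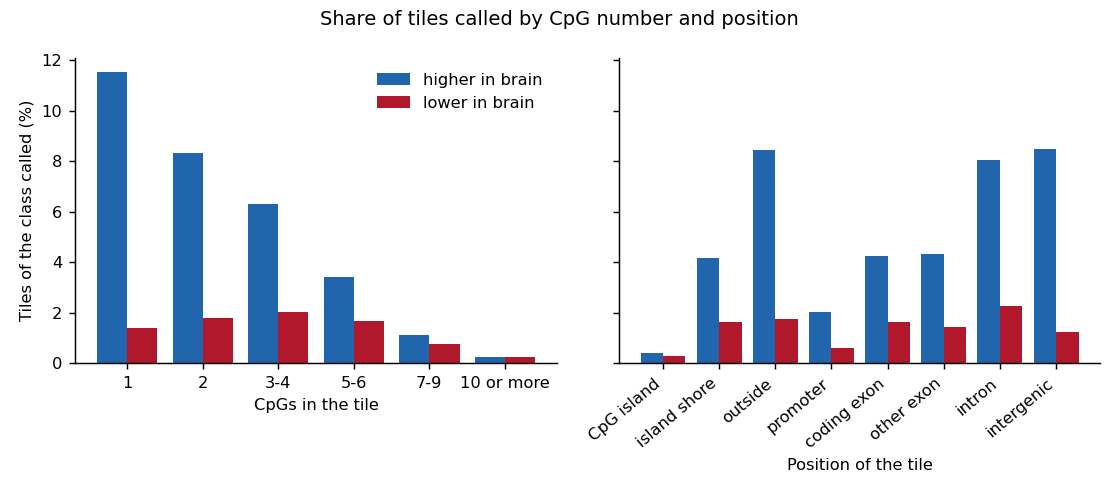
Percentage of the tiles of each class called higher (blue) or lower (red) in brain, by the number of CpGs in the tile and by its position. Calls higher in brain fall from 11.5% at 1 CpG to 0.267% at 10 or more CpGs, and among the positions both bars are lowest in CpG islands.

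The letters of known binding motifs were not spread evenly over the called tiles. Motifs were searched on both strands in tiles with 1 to 4 CpGs in introns and intergenic sequence outside islands, of which there were 623471 in all, 56834 higher in brain and 10937 lower in brain, with a similar mean GC content of 48.1%, 47.5% and 49.0%. AGATAA, bound by GATA factors, which act in heart muscle, endothelium and blood, was in 5.03% of all these tiles, 11.3% of those higher in brain and 2.19% of those lower in brain. AGGAAGT, bound by ETS factors, which act in endothelium and blood, was in 2.14%, 5.30% and 0.869%. Both motifs were thus most frequent in tiles less methylated in heart.
E-box and SOX letters were most frequent in tiles lower in brain. CAGCTG, an E-box bound by basic helix-loop-helix factors such as those of neurons and muscle, was in 4.72% of all tiles, 5.30% of those higher and 8.08% of those lower in brain. The E-box CAGATG was in 7.55%, 7.85% and 9.68%, and ACAATG, bound by SOX factors, in 4.29%, 4.73% and 7.06%. Among the remaining letters, GGAATG (TEAD factors) was in 5.30%, 6.86% and 5.49%, the MEF2 motif in 1.13%, 1.63% and 0.850%, and TGACGTCA (the cyclic AMP response element) in 0.0589%, 0.0809% and 0.0914%. A match of letters is a description and shows no binding.

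Called tiles lay in groups of 1 direction. Where adjoining tiles were both called, 16019 of 16028 pairs had the same direction. Joining called tiles with starts at most 500 bp apart gave 47508 runs higher and 9958 runs lower in brain. Runs of at least 2 tiles held 48.3% of the tiles higher and 53.9% of the tiles lower in brain, and 314 and 92 runs had at least 5 tiles.

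The longest runs higher in brain lay mostly within genes. A run of 17 called tiles at chr2:25577301-25580000 covered the coding exon of Ajm1, which encodes a protein of epithelial cell junctions. Its level was lowest at 29.5%, had a median of 47.4% and was highest at 49.7% in brain, against 5.42%, 6.22% and 7.19% in heart. Brain libraries 1 and 5 were below the other 4 brain libraries, and the tissues did not overlap. Runs of 11 tiles lay in intron 1 of Tpst2, a protein tyrosine sulphotransferase (chr5:112278001-112279500, 77.7% ± 3.72 in brain and 40.5% ± 1.73 in heart) and in coding exon 2 of Disp3 (chr4:148271101-148272600, 56.1% ± 2.13 and 20.4% ± 1.83). Another run of 11 tiles lay between genes at chr17:45885101-45886800 (63.1% ± 6.17 and 25.5% ± 1.29). A run of 10 tiles covered exons 2 to 7 of Crip2, a LIM domain protein abundant in heart and vessels (chr12:113143501-113145400, 79.6% ± 1.43 and 41.9% ± 2.21). Over the run tiles also measured in liver, liver was at 8.57% in Ajm1, 19.9% in Disp3 and 13.5% in the chromosome 17 run. Liver was thus not near brain in these runs. It lay between the tissues in Tpst2 (56.6%) and next to brain in Crip2 (82.2%).

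The longest runs lower in brain included a gene of neural circuits and a brain microRNA. The longest, 14 tiles at chr8:122335601-122337000, lay in coding exon 10 of Zfpm1, which encodes FOG1, a partner of GATA factors. It measured 22.5%, 32.4% and 48.4% (lowest, median and highest) in brain and 81.4%, 82.3% and 86.0% in heart, with brain library 1 the highest of the brain libraries. Further runs lay in coding exon 21 of Casz1, a zinc finger transcription factor (11 tiles, chr4:148951901-148953100, 8.42% ± 3.52 in brain and 54.6% ± 2.11 in heart), and in coding exons 9 and 10 of Sipa1, a Rap GTPase activator (11 tiles, chr19:5654001-5655100, 12.7% ± 2.28 and 50.8% ± 1.94). The Lrrc4 run is described with its promoter below.
A run of 11 tiles at chr2:29845301-29846700 spanned Mir219a-2, the gene of a microRNA abundant in brain and oligodendrocytes. Its levels in brain were spread widely, from 21.6% in library 4 to 55.5% in library 6 with a median of 33.6%. Heart ranged from 65.3% to 68.0%, and liver was at 66.8%. The 2 tiles that touched the hairpin (chr2:29845631-29845727, minus strand) averaged 47.0% in brain and 78.1% in heart, and both were called lower in brain. The mature miR-219a-5p and the heart microRNAs miR-208a-3p and miR-208b-3p, whose genes lie within Myh6 and Myh7 described below, are given from RefSeq with the seed (bases 2 to 8) in capitals. The microRNAs of Myh6 and Myh7 share 1 seed, and no tile touched their hairpins.
miR-219a-5p: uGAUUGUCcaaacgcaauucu
miR-208a-3p: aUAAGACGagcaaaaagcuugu
miR-208b-3p: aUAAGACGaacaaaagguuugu

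The tiles furthest apart were nearly binary. The intergenic tile on chromosome 8, 206183 bp from the nearest start (Sipa1l2), ranged from 85.9% to 91.1% in brain and from 0% to 4.60% in heart, with medians of 89.7% and 3.40%. Both Lrrc8c tiles, in intron 1 of a subunit of the volume-regulated anion channel, had a like contrast. The upper of these in the list above measured 91.0% ± 3.03 in brain and 5.45% ± 4.07 in heart, and the lower measured 88.3% ± 17.2 and 5.87% ± 4.07, with brain library 1 at 53.8% and the other 5 at 90.0% or more. Liver was at 74.3% and 75.3%.
In the other direction, the tile in the last exon of Tubb2b, a beta-tubulin of neurons, ranged from 15.5% to 28.4% in brain and from 85.5% to 100% in heart. The Akap6 tile ranged from 5.2% to 23.5% and from 71.4% to 94.4%. The tile in intron 4 of Mir99ahg, the host gene of a microRNA cluster that includes Mir99a, ranged from 10.7% to 48.0% and from 89.1% to 97.4%. Adjusted p-values for these 6 tiles (limma) lay between 5.32e-11 and 5.28e-06, and in none of them did the libraries overlap.

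Promoters were compared as the mean level of all tiles that touched the 1000 bp on either side of a start, for 17893 genes with at least 2 such tiles. A further 875 genes had 1 tile and were not tested. Most promoters were unmethylated in both tissues, 12514 (69.9%) lying below 20% in each, and the median difference was 0.0333 points. Of the promoters tested, 310 (1.73%) were called higher in brain and 57 (0.319%) lower in brain, and in 360 of these 367 the libraries did not overlap. Without brain library 1 the counts were 345 and 65. After centring they were 255 and 72.
Promoters that differed were CpG-poor. A tile in a CpG island was present in 70.7% of all promoters, but in 11 of the 310 (3.55%) higher and 8 of the 57 (14.0%) lower in brain. Those higher in brain had medians of 68.1% in brain, 32.8% in heart and 59.0% in liver, and those lower in brain had medians of 33.6%, 73.3% and 80.3%.

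Among the 10 promoters furthest above heart in brain were genes of heart, vessels and blood. Popdc2, a membrane protein of heart muscle that binds cyclic AMP, had 9 tiles at chr16:38362101-38363200, all called. Its promoter level was lowest at 54.3%, had a median of 71.7% and was highest at 74.5% in brain, and measured 18.7%, 19.9% and 22.9% in heart. Brain libraries 1 and 5 were the lowest of the brain libraries and lay far above every heart library. The difference was 47.7 points (SE 3.15, limma, adjusted p = 8.82e-07), and liver was at 63.6%, near brain.
Plvap, a protein of endothelial fenestrae, measured 67.5% ± 7.07 in brain and 21.9% ± 1.83 in heart. Apold1, an early response gene of endothelium, measured 75.1% ± 4.45 and 31.7% ± 3.63, and with tiles taken 2000 bp on either side of the start its difference was 16.1 points and no longer called. Gdf2, which encodes the vascular ligand BMP9, measured 72.9% ± 6.03 and 22.8% ± 3.67. The chemokine gene Pf4, known from platelets, measured 76.7% ± 2.69 and 21.6% ± 2.59, with the brain libraries between 73.1% and 79.5%. Arhgdib, a gene of blood cells, measured 63.7% ± 10.5 and 17.7% ± 7.67, and liver was at 61.0%. Its 3 tiles were centred 777 bp downstream of the start, in intron 1.
The glycerol channel gene Aqp7 measured 73.8% ± 9.10 in brain and 29.2% ± 3.92 in heart. For Gdf3, a growth factor gene of early embryos, brain libraries 1 and 5 (48.4% and 52.0%) lay below the other 4 (74.1% or more), and heart ranged from 14.8% to 23.4%. The largest promoter difference, 60.2 points, belonged to Mir5123, but its 4 tiles (chr4:40850601-40851200) also lay in intron 1 of B4galt1. The 3 of them measured in liver were at 5.55% there, so that brain stood apart. The noncoding gene 4933440J02Rik measured 74.9% ± 7.90 and 29.1% ± 1.99, with liver at 27.3%.

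Among the 10 promoters furthest below heart in brain were genes of neurons and synapses. Lrrc4, which encodes the synaptic adhesion protein NGL-2, had 8 called tiles at chr6:28830901-28831700. Its brain level was lowest at 31.4% (library 5), had a median of 41.8% and was highest at 47.1%, whereas heart measured 89.3%, 92.0% and 94.1%. The gene is a coding exon within intron 16 of Snd1, on the opposite strand. The difference, brain minus heart, was −50.6 points (SE 2.29, limma, adjusted p = 7.93e-08), and liver was at 96.9%, next to heart.
Akap6, a scaffold of protein kinase A found in brain and muscle, had the lowest brain level relative to heart. Its 3 tiles in intron 1 measured 8.97%, 11.2% and 27.8% (lowest, median and highest) in brain and 78.1%, 83.2% and 85.7% in heart, with brain library 1 the highest of the brain libraries. Liver was at 42.3%, and the tiles were centred 867 bp downstream of the start. Vxn, which encodes vexin, a protein of neurogenesis, measured 20.8% ± 6.40 in brain and 83.0% ± 3.45 in heart over 6 tiles.
Minar2, a membrane protein of brain and inner ear, measured 10.3% ± 1.73 and 59.9% ± 2.31. Slitrk6, a neurite outgrowth receptor, measured 13.4% ± 3.25 and 53.6% ± 6.10. Nyap2, an adaptor of neuronal phosphoinositide 3-kinase signalling, measured 27.7% ± 9.32 and 65.5% ± 4.55.
Iqcj and the read-through gene Iqschfp share a start and their 4 tiles, at 30.5% ± 15.8 in brain and 77.5% ± 1.94 in heart. Brain library 1 was at 54.8% there and libraries 2 and 6 were at 12.2% and 13.9%, the widest spread among the promoters described here. The last of these promoters belong to noncoding genes, A330102I10Rik (24.3% ± 2.69 and 72.6% ± 3.08) and Gm13205 (10.7% ± 3.29 and 49.1% ± 1.98). With 2000 bp on either side the difference of Gm13205 was −24.2 points, just short of the limit. The tiles of Gm13205 overlap coding exon 21 of Casz1 and the run named above.
All 41 promoters and tiles named here and below remained called without brain library 1. The difference grew in size for 34 of them and moved by at most 6.89 points.

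**Figure D3:**
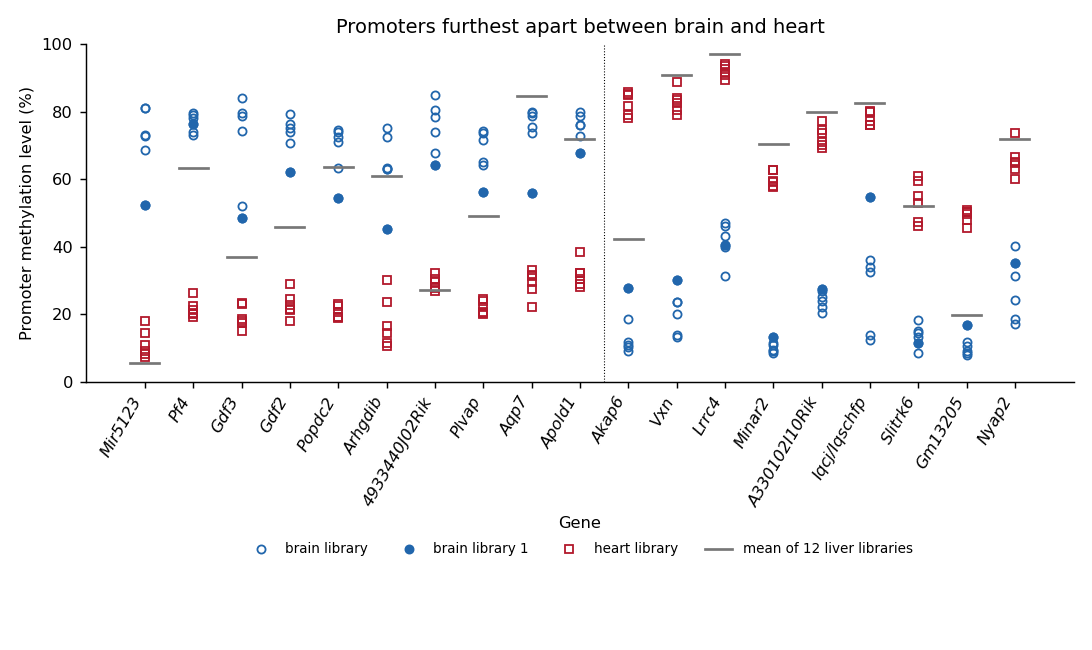
Promoter methylation level (%) in each brain library (blue circles, library 1 filled) and heart library (red squares) for the promoters furthest apart, higher in brain to the left and lower in brain to the right of the dotted line, with grey bars at the mean of 12 liver libraries. Brain and heart do not overlap at any gene, and brain library 1 is often the brain library nearest to heart, as at Aqp7 (55.9%) and Akap6 (27.8%).

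Genes of the heart muscle cell were less methylated in heart, at promoters and along gene bodies. Of 17 sarcomere genes with a promoter value, 8 (47.1%) were called higher in brain and 0 lower, against 1.73% and 0.319% of all promoters, and the median difference was 22.0 points. Inside the gene bodies, beyond 1000 bp of any start of the same gene, 191 of 907 tiles (21.1%) were higher in brain and 1 was lower. Of all 391442 gene body tiles, 7.79% were higher and 2.32% lower in brain. For 12 cardiomyocyte markers, 8 of which had a promoter value, 4 were higher and 1 lower in brain, and the median difference was 26.4 points. In their bodies 90 of 213 tiles (42.3%) were higher in brain and 0 lower. The lists overlap and are not separate evidence. All 4 of the higher markers (Tnni3, Myl2, Mybpc3 and Tnnc1) are among the 8 sarcomere calls, so their tiles are counted in both lists. The 1 lower marker, Nppa, is counted again with the natriuretic peptide genes below.
Tnnc1, which encodes cardiac troponin C, measured 56.9%, 74.8% and 81.7% (lowest, median and highest) in brain and 26.4%, 32.8% and 43.0% in heart, a difference of 40.5 points (SE 4.13, limma, adjusted p = 1.85e-05). The lowest brain library was library 1 and the groups did not overlap. Its 2 tiles were centred 788 bp downstream of the start, in intron 1. With tiles taken 2000 bp on either side of the start the difference was 13.5 points, which was not called. Mybpc3, cardiac myosin binding protein C, measured 91.4% ± 5.66 and 55.7% ± 5.61. Myl2, the ventricular regulatory light chain, measured 80.7% ± 7.29 and 46.7% ± 6.62, and Ttn, which encodes titin, 72.3% ± 6.33 and 38.5% ± 2.62. The 2 tiles of Myl2 were centred 811 bp downstream of the start, in intron 2. The values of Tnnc1 and Myl2 thus do not describe the sequence upstream of these genes. Tnni3, Myl3, Xirp1 and Ldb3 were the other sarcomere promoters called, with differences of 30.7, 30.8, 31.9 and 26.0 points.
Liver was near brain at these genes, with 72.3% at Tnnc1, 94.1% at Mybpc3, 88.9% at Myl2 and 73.1% at Ttn. Of the other markers, Myl7 (22.0 points, limma, adjusted p = 1.95e-05) passed the adjusted p but not the limit of 25 points, and Csrp3 (36.1% ± 8.43 and 34.4% ± 3.69) and Ryr2 (9.57% ± 0.717 and 10.4% ± 0.226) did not pass. Ryr2, the calcium release channel, had 44 of 122 body tiles higher in brain and 0 lower. Myh6, Tnnt2, Actc1 and Pln had no promoter tile.

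Myh7 and Myh6, the neighbouring genes of the beta and alpha cardiac myosin heavy chains, differed over most of their length. They were singled out after their values were seen, as the genes with the largest share of body tiles called among 7491 genes with at least 15 such tiles. In Myh7 all 19 body tiles were called higher in brain, from coding exon 5 to coding exon 38, and the mean over them ranged from 72.9% to 86.3% in brain with a median of 83.5%, and from 44.2% to 48.5% in heart with a median of 46.8%. In Myh6, 16 of 18 body tiles were called, at 84.2% ± 5.42 and 52.5% ± 2.96. Brain library 1 was the lowest of the brain libraries in both genes (72.9% and 73.5%).
The promoter of Myh7 did not follow its body. Its 2 tiles measured 37.5% ± 5.23 and 15.1% ± 3.34 in brain and 46.3% ± 7.25 and 36.0% ± 4.94 in heart, so that brain was the lower tissue at both, and neither was called.

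**Figure D4:**
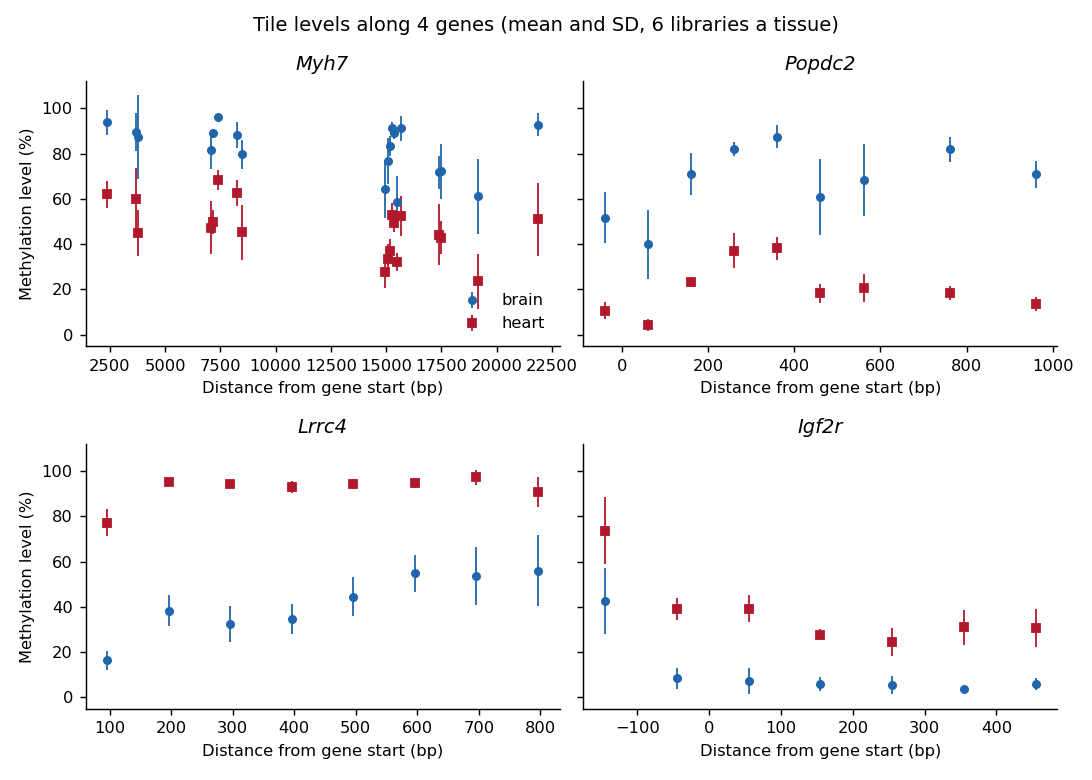
Mean level and SD (6 libraries a tissue) of each tile along Myh7 (gene body), Popdc2, Lrrc4 and Igf2r (promoters), by distance from the gene start in bp. Brain (blue) lies above heart (red) at every Myh7 and Popdc2 tile shown and below heart at every Lrrc4 and Igf2r tile.

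Calcium handling and natriuretic peptide genes held calls in both directions. Of 15 promoters 4 (26.7%) were higher and 1 (6.67%) lower in brain, against 1.73% and 0.319% of all promoters, with a median difference of 3.89 points. Of 1017 body tiles 172 (16.9%) were higher and 22 (2.16%) lower, against 7.79% and 2.32% of all gene body tiles. The share of body tiles lower in brain was thus near that of all gene bodies. Nppb, which encodes brain natriuretic peptide, secreted mainly by the heart, measured 41.0%, 53.8% and 58.5% (lowest, median and highest) in brain and 14.6%, 16.4% and 20.3% in heart. Casq2, the cardiac calsequestrin, measured 30.6% ± 7.73 and 1.67% ± 1.22. Hrc, a calcium-binding protein of the sarcoplasmic reticulum, measured 90.9% ± 3.98 and 63.5% ± 4.003, and Jph2, which ties that compartment to the cell membrane, 58.8% ± 3.54 and 32.7% ± 4.57. The difference of Hrc with 2000 bp on either side was 13.7 points, which was not called.
Nppa, which encodes atrial natriuretic peptide and neighbours Nppb, went the other way. Its level measured 30.4%, 35.4% and 45.6% in brain and 66.0%, 73.7% and 78.4% in heart, with no overlap, and the difference was −36.0 points (SE 3.36, limma, adjusted p = 1e-05). Liver was at 80.7%. With 2000 bp on either side the difference was −24.95 points, just short of the limit. The 2 tiles of this value (chr4:148001601-148001800) were centred 978 bp downstream of the start and reached into exon 3, so they do not describe the sequence upstream of the gene.

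Endothelial genes were the other group with many calls. All 11 promoters had a higher mean in brain, and 8 of them passed the adjusted p (limma). The share of all promoters that passed the adjusted p alone is not given here, so the 8 are not set against it. Of the 11, 5 (45.5%) were called higher and 0 lower, against 1.73% and 0.319% of all promoters. The median difference was 20.3 points. In the gene bodies 116 of 371 tiles (31.3%) were higher in brain and 3 (0.809%) lower, against 7.79% and 2.32% of all gene body tiles. Tek, the angiopoietin receptor, measured 40.2%, 60.1% and 68.0% (lowest, median and highest) in brain and 9.45%, 12.2% and 18.4% in heart, a difference of 45.1 points (SE 4.22, limma, adjusted p = 1.02e-05). Brain library 1 was the lowest in brain and the groups did not overlap.
Robo4, an endothelial guidance receptor, measured 71.4% ± 6.40 and 36.4% ± 2.53. Pecam1, the adhesion protein CD31, measured 71.9% ± 5.85 and 40.02% ± 2.85, and Tie1, an orphan receptor partner of Tek, 77.3% ± 2.47 and 48.2% ± 9.81. Eng, the coreceptor endoglin, measured 47.5% ± 13.1 and 20.8% ± 4.81, and its libraries overlapped. Esam (20.3 points) and Egfl7 (19.4 points) passed the adjusted p but not the limit on the difference.
Kdr and Flt1, the receptors of vascular endothelial growth factor, and Cdh5, vascular cadherin, had called tiles in the body but no called promoter. The Kdr promoter was at 8.46% ± 1.497 in brain and 4.90% ± 0.577 in heart, but 23 of its 31 body tiles were higher in brain, at 75.2% ± 5.97 and 41.7% ± 2.16. Flt1 had a promoter at 2.07% and 1.65% and 31 of 129 body tiles higher in brain. Cdh5 had 15 of 26 body tiles higher in brain.

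Promoters of the neuron and glia lists held no calls, beside 1.73% of all promoters called higher and 0.319% called lower in brain. Of 13 neuron markers none was called, and 10 promoters were below 20% in both tissues, as for Snap25 (1.45% ± 0.441 in brain and 2.06% ± 0.402 in heart), Syt1 (1.34% and 2.15%) and Gad1 (2.24% and 2.64%). Map2, a microtubule protein of dendrites, passed the adjusted p with a difference of −10.0 points (16.02% ± 1.18 and 26.0% ± 1.85). In the bodies of these genes 45 of 670 tiles (6.72%) were higher and 22 (3.28%) lower in brain, beside 7.79% and 2.32% of all gene body tiles. Rbfox3 alone had 333 of these tiles, with 24 higher and 14 lower in brain. No call was made by limma among 12 myelin promoters, 9 astrocyte promoters or 24 promoters of neural transcription factors, and all 24 of the last were below 20% in both tissues. An unadjusted p under 0.05 was reached by 3 of the 13 neuron, 9 of the 12 myelin, 4 of the 9 astrocyte and 10 of the 24 transcription factor promoters. The share of all promoters that reached it is not given here, so these counts show no excess or lack.
Myelin promoters differed in both directions. Mag and Cnp each differed by −11.2 points, brain minus heart (adjusted p = 0.0475 and 0.00109), Cldn11, the claudin of myelin, by −9.75 points (adjusted p = 0.00026) and Mog by −6.77 points (adjusted p = 0.0475), all from limma. Of the 12 promoters 4 had a higher mean in brain, among them Mbp, which encodes myelin basic protein, by 3.81 points (limma, adjusted p = 0.00121), Myrf by 2.91 points and Sox10 by 2.60 points. Cnp, Cldn11, Ugt8a and Mbp thus passed the adjusted p but not the limit on the difference. Myelin gene bodies held 13 tiles lower (5.26%) and 9 higher (3.64%) in brain of 247. Mbp alone had 114 of these tiles, with 9 lower and 8 higher in brain, so the shares describe mainly that gene. Astrocyte gene bodies held 17 tiles higher (8.63%) and 10 lower (5.08%) in brain of 197. Glul, the glutamine synthetase of astrocytes, had 6 of 18 body tiles lower in brain, and Gja1, a connexin of astrocytes and heart muscle, had 8 of 18 higher. The largest astrocyte promoter difference was that of Aldh1l1, 12.2 points higher in brain (limma, adjusted p = 0.000209). Fgfr3 and Glul also passed the adjusted p, with differences of −5.27 and −4.21 points.
Of 26 promoters of synapse genes, 20 were below 20% in both tissues, and the median difference was −0.713 points. Synapse gene bodies held 196 of 1912 tiles (10.3%) higher and 64 (3.35%) lower in brain, beside 7.79% and 2.32% of all gene body tiles. Long neural genes with many tiles lower in brain, chosen after their values were seen, were Gnao1, a G protein subunit (21 of 86 body tiles, 0 higher), and Map1b (18 of 80, 0 higher), with mean levels of 56.9% ± 2.25 and 61.6% ± 1.87 in brain and 69.2% ± 0.928 and 75.2% ± 0.442 in heart.

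The brain libraries also differed among themselves at the marker genes. The mean over the body tiles of the myelin list ranged from 50.4% (library 3) to 61.3% (library 6), which spans the heart range of 56.3% to 58.0%. That of the neuron list ranged from 57.3% (library 5) to 62.7% (library 4), with heart between 56.0% and 57.4%. These means count every tile alike, so genes with many tiles, such as Mbp and Rbfox3, weigh most in them. At the cardiomyocyte list brain library 1 was at 72.8% and the other brain libraries between 79.1% and 81.0%, with heart between 57.2% and 59.5%. At the endothelial list it was at 68.3% and the others between 72.9% and 75.7%, with heart between 56.6% and 57.7%. At the blood list it was at 73.5% and the others between 74.6% and 76.8%, with heart between 68.0% and 69.9%. At the hepatocyte list it was at 69.2% and the others between 70.9% and 74.2%, with heart between 63.5% and 64.9%. At the fibroblast and smooth muscle list it was at 71.2% and the others between 71.8% and 75.9%, with heart between 65.5% and 66.4%. Its lower level was thus not particular to genes of heart cells. At the neuron, myelin and astrocyte lists it was not the lowest brain library.

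Transcription factors of the heart had unmethylated promoters in both tissues. Of 20 such promoters 18 were below 20% in each tissue and 0 were called by limma, as for Gata4 (3.04% ± 0.702 and 1.89% ± 0.331) and Nkx2-5 (4.99% ± 0.832 and 8.13% ± 1.09). An unadjusted p under 0.05 was reached by 13, again without the share of all promoters to set beside it. Mef2c had the largest difference of the list, with 41.0% ± 1.46 in brain and 24.8% ± 3.12 in heart. Their bodies differed in both directions, with 91 of 583 tiles (15.6%) higher and 24 (4.12%) lower in brain, against 7.79% and 2.32% of all gene body tiles. Gata4 had 17 of 46 body tiles higher in brain, whereas Tbx3 had 7 of 15 and Tbx2 6 of 31 lower in brain, with 0 in the other direction in each of the 3.
Lists of genes with other roles held 1 promoter call, beside the 1.73% and 0.319% of all promoters. Fibroblast and smooth muscle genes had 1 of 10 promoters higher in brain, Postn (77.4% ± 4.47 and 51.4% ± 7.01), a matrix protein, near the limit with a difference of 26.0 points and not called without brain library 4 (24.9 points) or heart library 6 (23.6 points). None of 4 blood and immune, 6 hepatocyte, 15 housekeeping, 14 DNA methylation machinery or 39 Hox promoters was called by limma. An unadjusted p under 0.05 was reached by 3, 5, 6, 5 and 8 of them, and here too the share of all promoters is not given. Body tiles higher in brain were 10.6% of 123 in hepatocyte genes, 9.74% of 195 in fibroblast and smooth muscle genes, 8.51% of 94 in blood and immune genes, 4.21% of 95 in housekeeping genes and 25 of 463 in the machinery genes, beside 7.79% of all gene body tiles. Hox gene bodies held 401 tiles with 0 calls in either direction. Dnmt3l had the largest difference of the machinery list, with 77.2% ± 1.66 in brain and 58.2% ± 4.03 in heart.

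**Figure D5:**
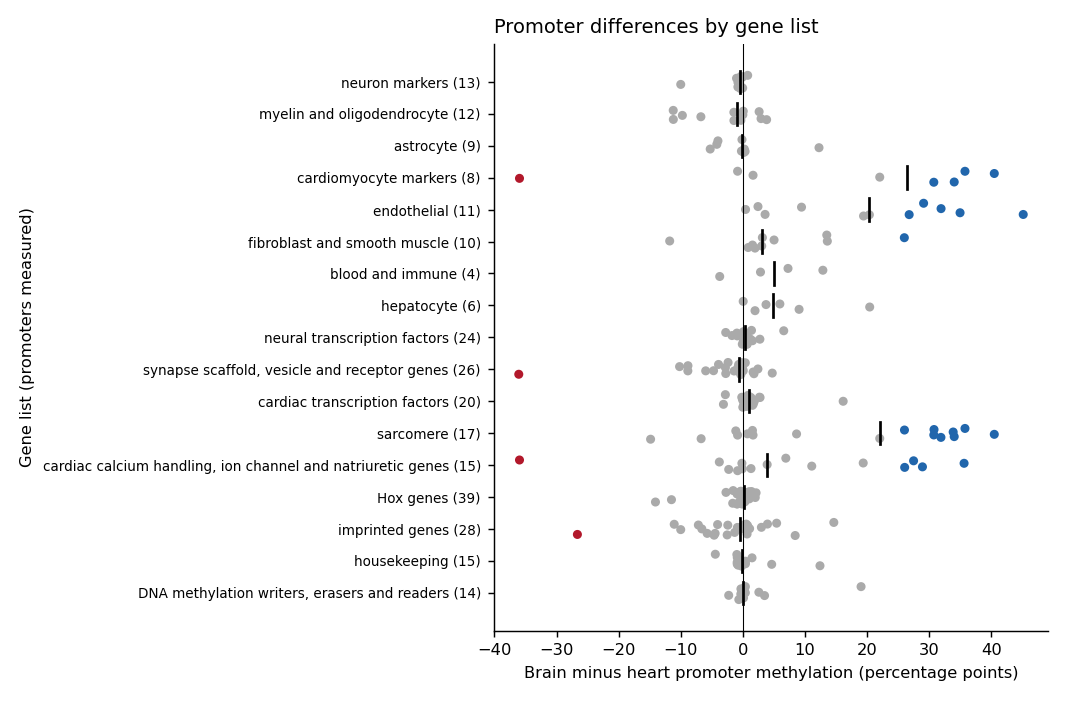
Brain minus heart promoter methylation (percentage points) of every measured gene of 17 lists, with genes called higher in brain in blue, lower in brain in red and others in grey, and the median of each list as a black bar. Cardiomyocyte (median 26.4), sarcomere (22.0) and endothelial (20.3) genes lie to the right, and the other medians lie between −0.899 and 5.04 points.

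Imprinted genes, which are expressed from 1 parental copy and carry methylation on 1 copy at their control regions, mostly had intermediate promoter levels in both tissues. Of 28 promoters 1 (3.57%) was called, lower in brain, beside 0.319% of all promoters. Peg10 and Sgce, which share their tiles, were at 39.7% ± 3.84 in brain and 39.2% ± 3.57 in heart, Snrpn at 41.7% ± 2.51 and 36.3% ± 3.78, and Airn at 39.8% ± 7.42 and 36.9% ± 7.36. Igf2r, the receptor that clears insulin-like growth factor 2, was the exception. Its promoter lies in a CpG island opposite the Airn transcript, whose own promoter is inside Igf2r.
The 7 tiles of the Igf2r promoter (chr17:12769201-12769900) had a mean of 5.97%, 10.8% and 18.5% (lowest, median and highest) in brain and 31.1%, 37.7% and 43.5% in heart, with no overlap. The difference was −26.6 points (SE 2.42, limma, adjusted p = 8.32e-06). Liver had no value at the tile furthest upstream. Over the other 6 tiles it was at 38.0%, nearer to heart than to brain. Brain library 1 was the highest of the brain libraries. In 6 of the 7 tiles brain lay between 3.8% and 8.4% and heart between 24.4% and 39.1%, and 4 tiles were called. The tile furthest upstream, printed above, was at 42.7% ± 14.7 and 73.7% ± 14.7, and only there did libraries of the tissues overlap. The body of Igf2r went the other way, with 9 of 42 tiles higher in brain and 0 lower.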

How the data were processed

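Enhanced RRBS and mapping were done by a commercial service, and the submitters' processing notes name Bismark, methylKit and the mm10 build. The authors computed levels in 100 bp tiles, retained those with over 10 reads in all libraries of the tissue, and deposited 1 table a tissue with levels as a fraction from 0 to 1 and no read counts. Fractions were multiplied by 100 here. All 24 columns were assigned to a tissue by their table, since their running numbers match no mouse. The members, gene lists and limits were chosen with earlier results of these data known.

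Tiles and promoters were tested with limma 3.58.1 in R 4.3.3, 6 against 6 libraries, with Benjamini-Hochberg adjustment over all 896477 tiles or 17893 promoters, after the script was tested on simulated data. Class means were compared by exact permutation in Python 3.11.15. Annotation used 43783 RefSeq transcripts on GRCm38, in the order promoter, coding exon, other exon, intron, intergenic. A CpG was found in 99.9% of tiles and in 55.5% of positions moved by 100000 bp. The 15840 islands were called on repeat-masked sequence (over 200 bp, at least 50% GC, observed to expected CpG ratio of 0.6).

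The text names the 10 promoters per direction with the largest difference, at least 3 tiles and no overlap of libraries, the 5 longest runs, the 3 tiles of at least 3 CpGs furthest apart outside those runs, up to 4 called members of a list, and the cell type markers. Genes named beyond this were chosen after their values were seen. Alternatives were another scale, variance model, limits, centring, promoter windows, gene set and islands, and leaving out each library. A promoter that the rule would name is not reported here.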

Additional observations from a re-analysis of the deposited data

Results flagged for a closer look

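In 116 groups of 6 libraries the lowest or highest value was compared with its nearest neighbour, and the gap took up more of the range than a 95% limit allows in 10 of them (8.62%). About 1 group in 20 is marked in this way by chance if groups are separate. These groups reuse the same libraries, and some share tiles, as Iqcj and Iqschfp do. One shifted library can thus mark several of them, and the share of 8.62% is not a count of independent events. Of the 10, 7 were set by brain library 1, the library whose levels were shifted toward heart.

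In each of these 7 groups brain library 1 was the brain library nearest to heart. It was at 55.9% at the Aqp7 promoter, where the other brain libraries were at 73.7% or more. It was at 80.7% at the Mybpc3 promoter and 59.1% at the Robo4 promoter. It was at 72.9% over the Myh7 body and 73.5% (73.45) over the Myh6 body. In the run lower in brain within Casz1 it was at 15.5% against at most 7.84% in the others, and in the second Lrrc8c tile at 53.8%. The cause was not tested.

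The other 3 were set by other libraries. Heart library 3 had the highest mean level over all tiles in heart (61.5%) and the lowest level at the Tubb2b tile (85.5%). Brain library 5 was the lowest brain library in the Lrrc4 run (32.2%).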

How the results depend on the processing

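For 41 promoters and tiles named by rule, the difference was recomputed under each alternative. Of the 759 values none changed direction, and 8 no longer passed: with 2000 bp on either side of a start Apold1 (16.1 points), Gm13205 (−24.2), Tnnc1 (13.5), Nppa (−24.95) and Hrc (13.7), and Postn after centring (24.1) and without brain library 4 (24.9) or heart library 6 (23.6). Counts moved mostly with the limits. With tiles of at least 2 CpGs there were 50365 calls, 39136 of them higher in brain. A limit of 10 points gave 203365 calls (169310 higher, 34055 lower) and 1813 promoters (1548 and 265), and a limit of 40 points gave 16603 calls (13759 and 2844) and 63 promoters (52 and 11). At least 4 tiles per promoter gave 134 promoters (110 and 24), and 1000 bp upstream alone gave 240, 196 of them higher in brain. Centring the libraries gave 38905 tiles higher and 24564 lower in brain. The other alternatives, including each library left out, the arcsine scale, a variance trend and an adjusted p of 0.05, kept every count of tiles and promoters within 1.5 times. Within the gene lists, 264 promoter counts and 574 counts of body tiles were within 1.5 times under the alternatives, and 35 and 106 were not. With the GENCODE gene set intergenic tiles were 37.8% of all tiles, 44.1% of those higher and 28.4% of those lower in brain. Promoter tiles were 9.23%, 3.53% and 4.30% with GENCODE, against 6.83%, 1.88% and 2.61% with RefSeq. Unknown depth limits the text to differences between libraries. No paired analysis was possible because the columns carry no mouse number.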
